A study of Mus musculus with 32 samples.

Results

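CHD4 binding was followed at 5 mouse genes, Ppp4r2, Ppp1r16b, Aes, Slc16a5 and Stk4, in a pre-B cell line before and after Ikaros was brought into the nucleus. Each gene is the protein-coding gene nearest to a CHD4 region that was called at 2 h and not at 0 h, and the 5 were chosen because their CHD4 regions had the highest ranks of such regions. The members were thus selected on CHD4 at 0 h and 2 h, and those values are given as a description. All Ikaros, CHD4 and H3K27ac peaks within 50 kb of the gene bodies were collected, which gave 648 peaks of 338060 in all lists. Merged where they overlapped, they formed 130 regions of 78488 in the series (46 Ikaros, 30 CHD4 and 54 H3K27ac regions).

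The cells were B3, a mouse pre-B line transduced by retrovirus with HA-tagged Ikaros fused to ERt2, a domain that keeps the protein out of the nucleus until 4-hydroxytamoxifen (4-OHT) binds it. All groups carried this construct, so none shows the effect of 4-OHT without it. Ikaros entry, 4-OHT itself and time after treatment therefore cannot be told apart. Cells were collected without 4-OHT (0 h) or after 30 min, 1 h or 2 h in 500 nM 4-OHT, and HA-Ikaros, CHD4 and H3K27ac were each mapped by ChIP-seq in 2 replicates per time, which gives 24 peak lists. The labels do not say whether replicates were separate cultures, so the tests below measure only the spread between these libraries. The labelled cell type was checked by H3K27ac at transcription start sites (TSSs) in both 0 h libraries, which marked 8 of 8 pre-B markers, 0 of 5 T cell markers, 0 of 4 myeloid markers and 1 of 3 erythroid markers (Klf1).

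CHD4 is the ATP-dependent remodelling subunit of NuRD, a complex that also carries histone deacetylases and that is recruited to promoters and enhancers by sequence-specific factors. Ikaros (IKZF1) is a zinc finger factor of lymphocytes that binds NuRD and recognises DNA with a GGGA core. H3K27ac marks active promoters and enhancers and is removed by deacetylases. Of the 5 genes, Ppp4r2 encodes a regulatory subunit of protein phosphatase 4, Ppp1r16b (TIMAP) a targeting subunit of protein phosphatase 1, and Stk4 (MST1) a kinase of the Hippo pathway. Aes encodes a short member of the Groucho family of corepressors, and Slc16a5 a member of the monocarboxylate transporter family.

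The peak lists give a fold over local background for each peak, so a missing call means only that the caller's cutoff was not reached there, and such DNA may still be bound. In such bulk samples fewer bound cells and less binding per cell cannot be told apart. The CHD4 region that chose Ppp4r2 (ENSMUSG00000052144.8) lies at chr6:100832842-100833653 and spans the annotated start of the gene at 100833622. Its centre is just upstream of the gene, and its end covers the start of the 5′ untranslated exon. Only the CHD4 peak of replicate 2 at 1 h reaches that start. The other CHD4 peaks there, those of both 2 h libraries included, end at 100833601 to 100833619. The region of Ppp1r16b (ENSMUSG00000037754.13), at chr2:158718957-158719665, lies in an intron 22822 bp from the nearest annotated start. The region of Aes (ENSMUSG00000054452.10), at chr10:81553362-81555071, is intergenic and ends 4417 bp before the gene. The region of Slc16a5 (ENSMUSG00000045775.15), at chr11:115462818-115464046, lies in the 5′ part of the gene, where it spans alternative starts and an exon of the antisense gene Gm11695. The region of Stk4 (ENSMUSG00000018209.15), at chr2:164083569-164085575, lies within the gene, spans a coding exon and is centred in an intron, 1972 bp from an internal start. All coordinates are GRCm38 (mm10), and all 5 genes are on the plus strand. Before the values, 151 bases of reference sequence are shown for 4 of the genes, since they are the DNA at which CHD4 was called after induction, in 3 of them together with Ikaros. The windows are centred between the 2 h Ikaros summits at chr10:81554095-81554245 (Aes), chr11:115463524-115463674 (Slc16a5) and chr2:164084183-164084333 (Stk4). At Ppp4r2, where no Ikaros peak overlapped, the window is chr6:100833471-100833621, directly before the annotated start. They are plus strand RefSeq sequence of GRCm38.p6, with GGGA or its reverse complement TCCC in capitals. The study also counted GGAA and TTCC as IKZF1 motifs, and those words were not marked or counted here.

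Ppp4r2: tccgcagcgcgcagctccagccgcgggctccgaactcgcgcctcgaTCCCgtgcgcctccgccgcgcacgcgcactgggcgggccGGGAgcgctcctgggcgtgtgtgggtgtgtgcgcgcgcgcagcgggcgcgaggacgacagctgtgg
Aes: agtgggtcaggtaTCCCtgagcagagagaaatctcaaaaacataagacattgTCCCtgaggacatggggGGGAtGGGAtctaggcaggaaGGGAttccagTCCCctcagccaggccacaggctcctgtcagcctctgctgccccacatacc
Slc16a5: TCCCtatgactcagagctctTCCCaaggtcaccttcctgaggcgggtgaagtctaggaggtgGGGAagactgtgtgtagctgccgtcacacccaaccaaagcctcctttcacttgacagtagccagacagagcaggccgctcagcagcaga
Stk4: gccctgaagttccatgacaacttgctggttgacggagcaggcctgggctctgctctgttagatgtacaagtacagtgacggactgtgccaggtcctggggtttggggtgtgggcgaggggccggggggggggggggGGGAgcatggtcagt

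The 4 windows differed in these letters. Aes held 6 GGGA words on both strands together, Slc16a5 held 3, Ppp4r2 held 2 and Stk4 held 1. In windows of the same length at all 8829 Ikaros regions called in both 2 h libraries, the median was 2, 88.1% held at least 1 and 4.27% held at least 6. The longer word GGGAA, which contains the core and was likewise counted on both strands, occurred 2 times at Slc16a5 and 0 times in the other 3 windows, against 49.2% of the Ikaros windows with at least 1. TGGGAA, counted the same way, occurred 1 time at Slc16a5 and 0 times in the other 3, against 17.5%. The whole CHD4 regions are longer, at 812 bp for Ppp4r2, 1710 bp for Aes, 1229 bp for Slc16a5 and 2007 bp for Stk4. Over them GGGAA occurred 2, 4, 4 and 4 times in that order, and TGGGAA 1, 1, 2 and 3 times. No background was counted for these lengths. The Ppp4r2 window was 78.1% G and C with 28 CpG dinucleotides. The others ran from 56.3% to 63.6% with 0 to 4 CpG, and the median of the Ikaros windows was 54.3%. Of 32851 RefSeq promoter windows of this length before the start, 82.3% held GGGA or TCCC, with a median G and C share of 53.6%.

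CHD4 was called in neither 0 h library and both 2 h libraries at all 5 regions, as the selection requires. With only peaks of a −log10 q of at least 3, Aes and Slc16a5 were no longer gained and 3 of 5 were left, and Slc16a5 was also lost when peaks were merged only where they shared at least 50% of the shorter. At Ppp4r2 the fold was 3.83 and 4.39 in replicates 1 and 2 at 2 h, and at Ppp1r16b it was 4.38 and 3.80. At Aes it was 3.79 and 4.03, at Slc16a5 3.76 and 4.00, and at Stk4 3.99 and 3.81. The folds at 2 h thus lay in a narrow range, and the replicates did not order the genes alike. The ranking used the mean percentile of the fold within the 2 h lists, which was 98.1 for Ppp4r2, 96.8 for Ppp1r16b, 96.7 for Aes, 96.4 for Slc16a5 and 96.3 for Stk4. The region just outside, near Ndrg3, had 96.1, and the median of all 815 gained CHD4 regions was 51.3. Gained regions were 5.31% of all 15355 CHD4 regions.

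The exact placement of the 2 h peaks differed between replicates at 2 of the regions. At Stk4 the peaks of replicates 1 and 2 did not overlap and lay 277 bp apart, joined into 1 region by the peaks of other libraries. At Slc16a5 they shared 134 bp. They shared 282 bp at Ppp1r16b, 429 bp at Ppp4r2 and 1219 bp at Aes. Beside the Slc16a5 region, CHD4 was also called in the uninduced replicate 2, in a 255 bp peak over the start of the gene (chr11:115462401-115462655, fold 3.25), so the 5′ end of that gene was not without a CHD4 call at 0 h.

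The 30 min and 1 h libraries were not used to choose the genes. CHD4 was called in at least 1 of the 30 min libraries at all 5 regions, against 35.1% of the other 810 gained CHD4 regions, and in at least 1 of the 1 h libraries at all 5, against 61.4%. In both libraries of a time it was called at 2 of 5 at 30 min (Aes and Stk4), where 9.94% of all gained CHD4 regions were, and at 2 of 5 at 1 h (Ppp4r2 and Aes), where 26% were. The genes were chosen for high ranks at 2 h, and whether rank alone sets the earlier calls was not tested.

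At Ppp4r2 CHD4 had a fold of 4.57 in replicate 1 at 30 min and no call in replicate 2, then 5.17 and 5.02 at 1 h. Both 1 h folds exceeded both 2 h folds. Within their lists the 1 h peaks stood at percentiles 99.3 and 99.5.

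At Aes the fold was 3.47 and 3.59 at 30 min and 3.57 and 3.83 at 1 h. Aes was the member with a CHD4 call in all 6 induced libraries, and its folds at 2 h (3.79 and 4.03) overlapped those at 1 h.

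At Stk4 the fold was 2.99 and 3.50 at 30 min, and at 1 h CHD4 was called in replicate 2 alone, at 4.58. At Ppp1r16b it was called in replicate 2 at 30 min (3.65) and 1 h (3.36). At Slc16a5 it was likewise called in replicate 2 at 30 min (3.25) and 1 h (3.52). At these 3 genes the missing calls at 30 min and 1 h were thus all in replicate 1. Peak lists of CHD4 differed in length, with 4081 and 3369 peaks in replicates 1 and 2 at 30 min, 5446 and 5027 at 1 h, 5523 and 9593 at 2 h and 2488 and 6000 at 0 h. Their depth is unknown, and its part in the missing calls was not tested.

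**Figure D1:**
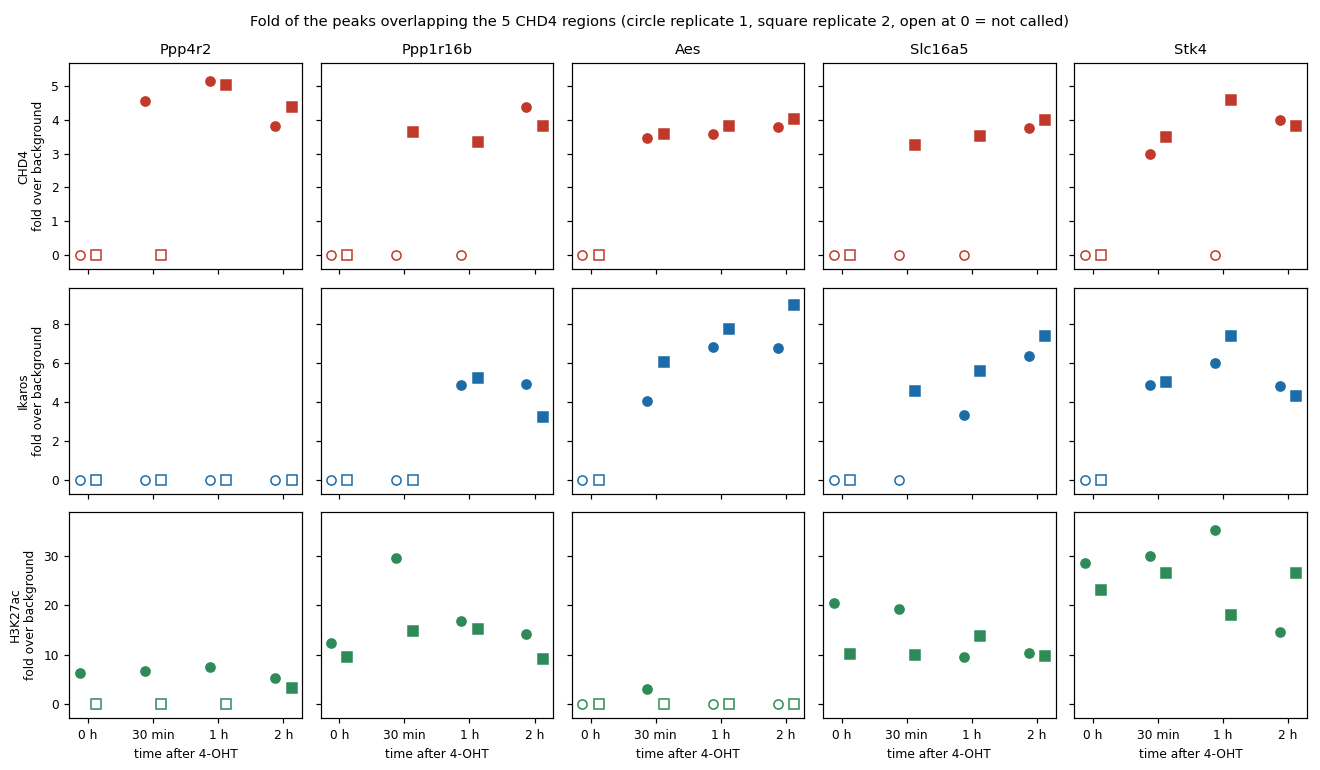
Fold over background of the peaks that overlap each CHD4 region, by time after 4-OHT (circles replicate 1, squares replicate 2, open symbols at 0 for no call); rows are CHD4, Ikaros and H3K27ac, each with its own linear scale. CHD4 rises from no call at 0 h to between 3.76 and 4.39 at 2 h at all 5 genes, while Ikaros has no call at Ppp4r2 and H3K27ac has a single call at Aes.

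Ikaros binding at the 5 CHD4 regions was not used to choose them. It was called in both 2 h libraries at 4 of 5, where 65.3% of all gained CHD4 regions had such a call. A gained Ikaros region (no call at 0 h, a call in each 2 h library) lay at the same 4 of 5. Of the other 810, 25.8% had a gained Ikaros region (209, where 528 had a call in both 2 h libraries). None of the 5 had an Ikaros call at 0 h, against 45.4% of the other 810 with a call in at least 1 uninduced library. The 0 h Ikaros libraries were the deeper ones, at 3.59 and 3.13 fragments per base in replicates 1 and 2 against 2.85 and 2.13 at 2 h, while their lists were shorter, with 7822 and 9527 peaks against 14225 and 14179. The part of depth and list length in the missing calls was not tested. With all Ikaros lists cut to equal size, 2 of the 5 CHD4 regions kept a gained Ikaros region (Aes and Slc16a5), and Ppp1r16b and Stk4 did not.

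Among the CHD4 regions of the members, the largest Ikaros fold was at Aes in each induced library except replicate 1 at 30 min, where Stk4 had 4.85. The region chr10:81553552-81554622 had a fold of 4.02 and 6.06 at 30 min, 6.82 and 7.72 at 1 h and 6.77 and 8.96 at 2 h, with 14 and 19, then 23 and 27, then 28 and 27 fragments at the summit. The 30 min values lay below the values at both later times in each replicate. The difference between 2 h and 30 min was 0.55 on the log2 scale (SE 0.36, adjusted p = 0.893, limma over 3151 regions), within the spread. It was 0.15 without replicate 1 and 0.98 without replicate 2 at 30 min.

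At Stk4 the Ikaros region chr2:164083926-164084940 had a fold of 4.85 and 5.03 at 30 min, 5.97 and 7.39 at 1 h and 4.81 and 4.31 at 2 h. The 1 h values were the highest, and both 2 h values were below both 30 min values. Fragments at the summit went the other way, with 17 and 14 at 30 min, 20 and 23 at 1 h and 23 and 21 at 2 h, or 6.70 and 7.06 times the mean coverage at 30 min and 8.07 and 9.88 times at 2 h. The direction between 30 min and 2 h thus depended on the measure. Between 2 h and 30 min the log2 difference was -0.20 (SE 0.34, adjusted p = 0.967, limma). Aes and Stk4, the genes with Ikaros in both replicates by 30 min, were also those with CHD4 in both by that time.

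At Slc16a5 Ikaros (chr11:115463390-115464067) was called in replicate 2 at 30 min, at 4.54, and had a fold of 3.32 and 5.57 at 1 h and 6.36 and 7.36 at 2 h. Fragments at the summit were 23 and 17 at 1 h and 25 and 22 at 2 h, so in replicate 1 nearly the same number of fragments came with a fold of 3.32 at 1 h and of 6.36 at 2 h. The fold divides by a local background, which differed between these libraries.

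At Ppp1r16b the Ikaros region (chr2:158718948-158719842) had no call at 30 min, a fold of 4.83 and 5.21 at 1 h and 4.90 and 3.19 at 2 h. It held 16 and 25 fragments at the summit at 1 h and 20 and 24 at 2 h. The lower fold of replicate 2 at 2 h again came with a similar number of fragments.

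Ppp4r2 had no Ikaros peak at its CHD4 region in any library. The nearest Ikaros call lay in the gene at chr6:100834112-100834355, in replicate 1 at 1 h alone, with a fold of 3.98 and 13 fragments at the summit. The CHD4 region with the highest rank was thus the member without Ikaros at either 2 h library. At the other 4 genes, 21 of 21 Ikaros peaks that overlapped the CHD4 region had their summit inside it, over all induced libraries. Relative to the centre of the CHD4 region the summits lay at -145 to -5 bp at Aes and 123 to 211 bp at Slc16a5. They lay at -384 to -189 bp at Stk4 and -200 to 67 bp at Ppp1r16b. Only overlapping peaks were counted, and the like share at the other gained CHD4 regions was not computed.

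**Figure D2:**
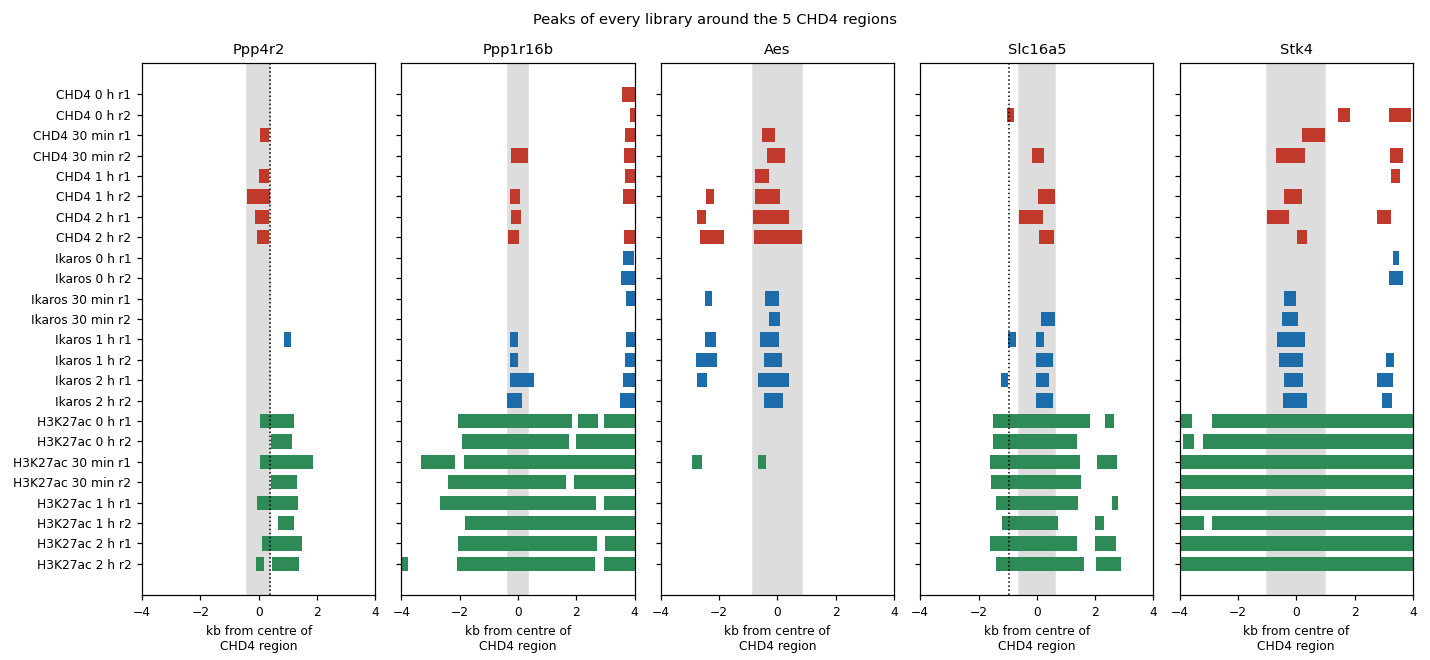
Extent of every peak (bars) in the 24 libraries within 4 kb of the centre of each CHD4 region; the grey band is the merged CHD4 region and the dotted line the start of the gene where it falls in view. Ikaros and CHD4 bars coincide from 30 min or 1 h at 4 genes, Ppp4r2 has CHD4 ending at the gene start with H3K27ac beyond it, and Aes has CHD4 and Ikaros with 1 H3K27ac peak in the band.

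H3K27ac at the same places separated Aes from the others. At 4 of 5 CHD4 regions an H3K27ac region was called in both 0 h libraries, where 90.8% of all gained CHD4 regions had one, and these 4 were called in all 8 libraries. At Aes the CHD4 region had H3K27ac in 1 of 8 libraries, replicate 1 at 30 min, with a fold of 2.95 and 13 fragments at the summit. The start of Aes itself carried H3K27ac in all 8 libraries, as did a start of each other member (40 of 40 gene and library pairs within 1 kb). The share of all protein-coding genes with H3K27ac at a start was not computed, so this count describes the members only.

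Stk4 and Ppp1r16b had their CHD4 regions inside broad acetylated domains. The merged H3K27ac region at Stk4 (chr2:164074041-164095661) was 21621 bp wide, a width that 27 of 39289 H3K27ac regions reached, and that at Ppp1r16b (chr2:158715987-158727496) was 11510 bp wide, which 284 reached. Those of Slc16a5 and Ppp4r2 were 3424 and 1963 bp, and the median of all regions was 803 bp. Merging over 8 libraries widens a region.

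At Stk4 the H3K27ac peak over the CHD4 region had a fold of 28.4 and 23.0 at 0 h, 29.9 and 26.5 at 30 min, 35.3 and 18.0 at 1 h and 14.5 and 26.4 at 2 h. In 7 of 8 libraries its summit lay inside the CHD4 region, 224 to 281 bp from the centre. In replicate 1 at 30 min it lay at -10119 bp, so the fold of 29.9 belongs to another place in the domain. The times overlapped, and the region differed between 2 h and 0 h by 0.04 (log2, SE 0.31, adjusted p = 0.966, limma over 14715 regions).

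At Ppp1r16b the peak over the CHD4 region had a fold of 12.4 and 9.44 at 0 h, 29.5 and 14.7 at 30 min, 16.7 and 15.2 at 1 h and 14.1 and 9.02 at 2 h. Values at 0 h and 2 h overlapped. The peaks of replicate 1 at 30 min and replicate 2 at 1 h were longer and had their summits 3644 and 4365 bp from the centre of the CHD4 region, so their folds belong to another place in the domain. That of replicate 2 at 30 min also had its summit outside the region, at -744 bp, and the other 5 had it inside. Over the whole domain, taken at its highest peak, the log2 difference between 2 h and 0 h was 0.32 (SE 0.27, adjusted p = 0.611, limma).

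At Slc16a5 the H3K27ac peak had a fold of 20.4 and 10.1 at 0 h, 19.2 and 9.84 at 30 min, 9.41 and 13.7 at 1 h and 10.4 and 9.69 at 2 h, with 111 and 88 fragments at the summit at 0 h and 80 and 70 at 2 h. Replicate 1 was about as high at 0 h and 30 min and lower later, and replicate 2 did not follow it. The log2 difference between 2 h and 0 h was -0.05 (SE 0.35, adjusted p = 0.966, limma).

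At Ppp4r2 the H3K27ac region (chr6:100833157-100835119) had a fold of 6.23 and 6.67 at 0 h, 6.73 and 6.16 at 30 min, 7.42 and 4.55 at 1 h and 5.34 and 3.86 at 2 h. Both 2 h values were below both 0 h values, and the difference did not exceed the spread (log2 -0.17, SE 0.28, adjusted p = 0.826, limma). Most of this mark lay downstream of the CHD4 region. Only 5 H3K27ac peaks overlapped that region, and 1 of the 5 had its summit inside it.

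The starts of Aes and Ppp1r16b were also chosen for naming after their values were seen. At the start of Aes (chr10:81559214-81561614) the fold was 8.23 and 7.36 at 0 h, 10.5 and 8.93 at 30 min, 6.54 and 3.97 at 1 h and 4.36 and 5.38 at 2 h. The 4 values at 1 h and 2 h were all below the 4 earlier ones. The fitted difference between 2 h and 0 h was -0.32 (log2, SE 0.28, adjusted p = 0.638, limma), which did not pass the test. At the start of Ppp1r16b (chr2:158663789-158684082) the fitted difference was 0.49 (SE 0.27, adjusted p = 0.418, limma), with a fold of 26.9 and 20.1 at 0 h and 23.0 and 26.0 at 2 h. The fit is made after the libraries are given the same distribution of folds, so that its difference need not follow the deposited folds.

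Over all 5 windows, 23 H3K27ac regions were called in all 8 libraries and could be tested. None passed an adjusted p of 0.05 at 2 h, where 0.55% of all 14715 regions did, at 1 h (0.0748%) or at 30 min (0%). At an unadjusted p under 0.05 there were 3 of 23 at 2 h, 1 at 1 h and 5 at 30 min, against 15.1%, 12.6% and 8.80% of all regions. At 2 h, 11 differences were above 0 and 12 below, with a median of -0.03 against 0.01 over all regions. Without normalisation 3 were above 0 and 20 below, with a median of -0.48 against -0.41 over all regions, and relative to that median 9 were above and 14 below. With normalisation, the median at 2 h was -0.004 at the 4 tested H3K27ac regions that overlapped the CHD4 regions of the members. At the 717 that overlapped the other gained CHD4 regions it was 0.16. On simulated data of the same size the fit called 0% of regions changed by 1 on the log2 scale and 67% of those changed by 2, and sizes between these were not simulated.

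The lowest and the highest difference at 2 h were both away from the CHD4 regions. The lowest was in Gna15, a G protein alpha subunit gene in the Aes window (chr10:81516477-81520866, log2 -1.25, SE 0.59, adjusted p = 0.333, limma). Its replicates lay far apart, with a fold of 36.8 and 10.5 at 0 h and 4.07 and 9.83 at 2 h. The log2 difference was -0.44 without replicate 1 and -2.05 without replicate 2 at 0 h, and -0.51 without replicate 1 and -2.00 without replicate 2 at 2 h. The highest was in an intron of Ppp1r16b (chr2:158732952-158736197, log2 0.89, SE 0.26, adjusted p = 0.126, limma), where the fold was 5.87 and 5.11 at 0 h, 6.19 and 5.45 at 30 min, 6.19 and 4.55 at 1 h and 8.30 and 7.29 at 2 h. Both 2 h values were above all 6 earlier ones, and the difference did not pass the test. An Ikaros region was gained inside it (chr2:158733993-158734468), with no call before 2 h and a fold of 5.37 and 3.84 at 2 h.

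The lowest adjusted p of any window region and time belonged to the start of Gna15, which, like the lowest and highest regions above, was singled out after its values were seen. H3K27ac there (chr10:81522247-81525917) had a fold of 29.0 and 22.4 at 0 h, 18.9 and 13.8 at 30 min, 9.34 and 7.46 at 1 h and 9.28 and 10.2 at 2 h, and all 6 later values were below both 0 h values. The log2 difference was -1.32 at 1 h (SE 0.25, adjusted p = 0.0553, limma) and -0.93 at 2 h (SE 0.25, adjusted p = 0.106, limma), both short of the threshold. Without normalisation of the libraries the region passed at both times, at -1.61 (adjusted p = 0.0252, limma) and -1.39 (adjusted p = 0.0384, limma), and over all alternatives its adjusted p at 1 h ran from 0.0252 to 0.383. The median of all regions was then itself lower, by -0.24 at 1 h and -0.41 at 2 h. Ikaros and CHD4 were called at this start in all 8 libraries each, 0 h included.

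**Figure D3:**
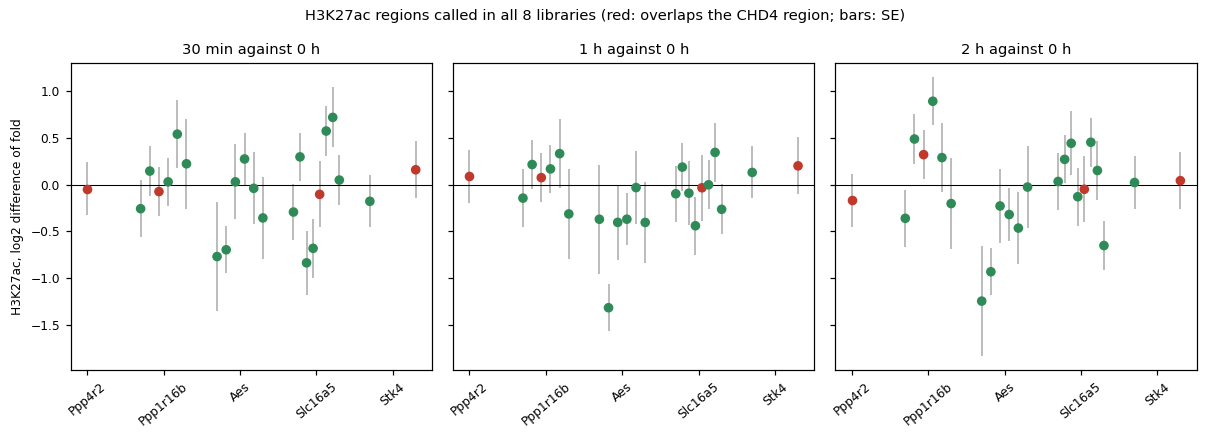
Log2 difference of the H3K27ac fold from 0 h for the 23 tested regions, by gene window and in genome order within it, at 30 min, 1 h and 2 h; bars are standard errors and red points are regions that overlap the CHD4 region. The 4 red points lie between -0.17 and 0.32 at 2 h, and the lowest point at 1 h and the lowest at 2 h both belong to Gna15 in the Aes window.

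Over the whole windows, Ikaros was gained at 7 of 46 Ikaros regions, where 12% of all Ikaros regions were gained, and lost at 1 of 46, where 3.59% were. Of the 7, 4 were those at the CHD4 regions, and elsewhere in the windows 3 of 42 were gained, or 7.14%. Besides the 4 described and that in the other Ppp1r16b intron, the gained regions were 1 near Slc16a5 and 1 in the Aes window. The region upstream of Slc16a5 (chr11:115451713-115452508, 9966 bp from its nearest start) had a fold of 2.64 and 4.24 at 30 min, 5.97 and 5.40 at 1 h and 4.70 and 8.64 at 2 h. It was higher at 2 h than at 30 min in both replicates, by 0.90 on the log2 scale (SE 0.36, adjusted p = 0.804, limma), which did not pass. The difference was 0.47 without replicate 1 and 1.37 without replicate 2 at 30 min, and 0.57 without replicate 2 at 2 h. CHD4 lay at the same place in 7 of 8 libraries, replicate 2 at 0 h among them.

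The gained region in the Aes window (chr10:81604729-81605309, 961 bp from a start of BC025920) had a fold of 6.19 and 4.69 at 30 min, 9.09 and 4.44 at 1 h and 4.54 and 6.40 at 2 h. Between 2 h and 30 min it differed by -0.08 (log2, SE 0.35, adjusted p = 0.998, limma). At the start of Ppp1r16b the Ikaros region (chr2:158665493-158668119), called from 0 h on, differed by -0.03 (log2, SE 0.34, adjusted p = 0.998, limma). None of the 11 Ikaros regions tested in the windows passed, nor did any of the 3151 tested (0%). At an unadjusted p under 0.05 there were 1 of 11 and 183 of 3151.

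The lost Ikaros region lay in an intron of Ppp1r16b (chr2:158683133-158683593), with its centre 17965 bp from the start of the gene. It had a fold of 11.6 and 12.9 at 0 h, with 53 and 54 fragments at the summit, and no call in any of the 6 induced libraries. Before induction these peaks stood at percentiles 97.1 and 96.3 of their lists. It lay inside the acetylated region over the start of Ppp1r16b, which was called in all 8 H3K27ac libraries.

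CHD4 was gained at 7 of 30 CHD4 regions, where 5.31% of all 15355 CHD4 regions were gained. The selection fixed 5 of the 7. The other 2 were in the Aes and Slc16a5 windows. The region chr10:81551447-81552399, which lies before the CHD4 region of Aes, had a fold of 3.18 in replicate 2 at 1 h and of 2.95 and 3.15 at 2 h. Ikaros was called there (chr10:81551407-81552126) in replicate 1 at 30 min (3.67), in both replicates at 1 h (3.06 and 4.44) and in replicate 1 at 2 h (4.16). The region chr11:115412823-115413636 near Mrpl58 had a fold of 3.39 and 3.12 at 2 h and no earlier CHD4 call, while Ikaros was called there from 0 h.

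H3K27ac was gained at 2 of 54 H3K27ac regions, where 3.73% of all H3K27ac regions were, and lost at 1 of 54, where 2.78% were. The gained regions were weak. The 1 in an intron of Ppp1r16b (chr2:158743111-158744078) had a fold of 3.77 and 3.48 at 2 h, with 18 and 17 fragments at the summit, and was also called in replicate 1 at 30 min (3.58) and 1 h (2.87). The 1 in an intron of Stk4 (chr2:164102297-164103639) had a fold of 4.16 and 3.30 at 2 h, after a call in replicate 2 at 1 h (3.12).

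The lost H3K27ac region was at Tle6, another Groucho family gene, in the Aes window (chr10:81596334-81597605). Its fold was 5.18 and 5.11 at 0 h, 6.10 and 4.29 at 30 min and 3.92 and 2.99 at 1 h, with no call at 2 h. Acetylation of Tle6 was not lost as a whole. A neighbouring H3K27ac region in the gene (chr10:81597837-81598458) was called in replicate 2 at 30 min (3.91) and at 2 h (3.29), and another (chr10:81599993-81601633) was called in all 8 libraries. The summit of the lost region held 31 and 28 fragments at 0 h, 28 and 21 at 30 min and 21 and 14 at 1 h. Both 1 h folds were below all earlier ones. Ikaros and CHD4 were called over it in all 8 libraries each, with an Ikaros fold of 9.48 and 13.1 at 0 h and 6.49 and 5.44 at 2 h (chr10:81596186-81598341).

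**Figure D4:**
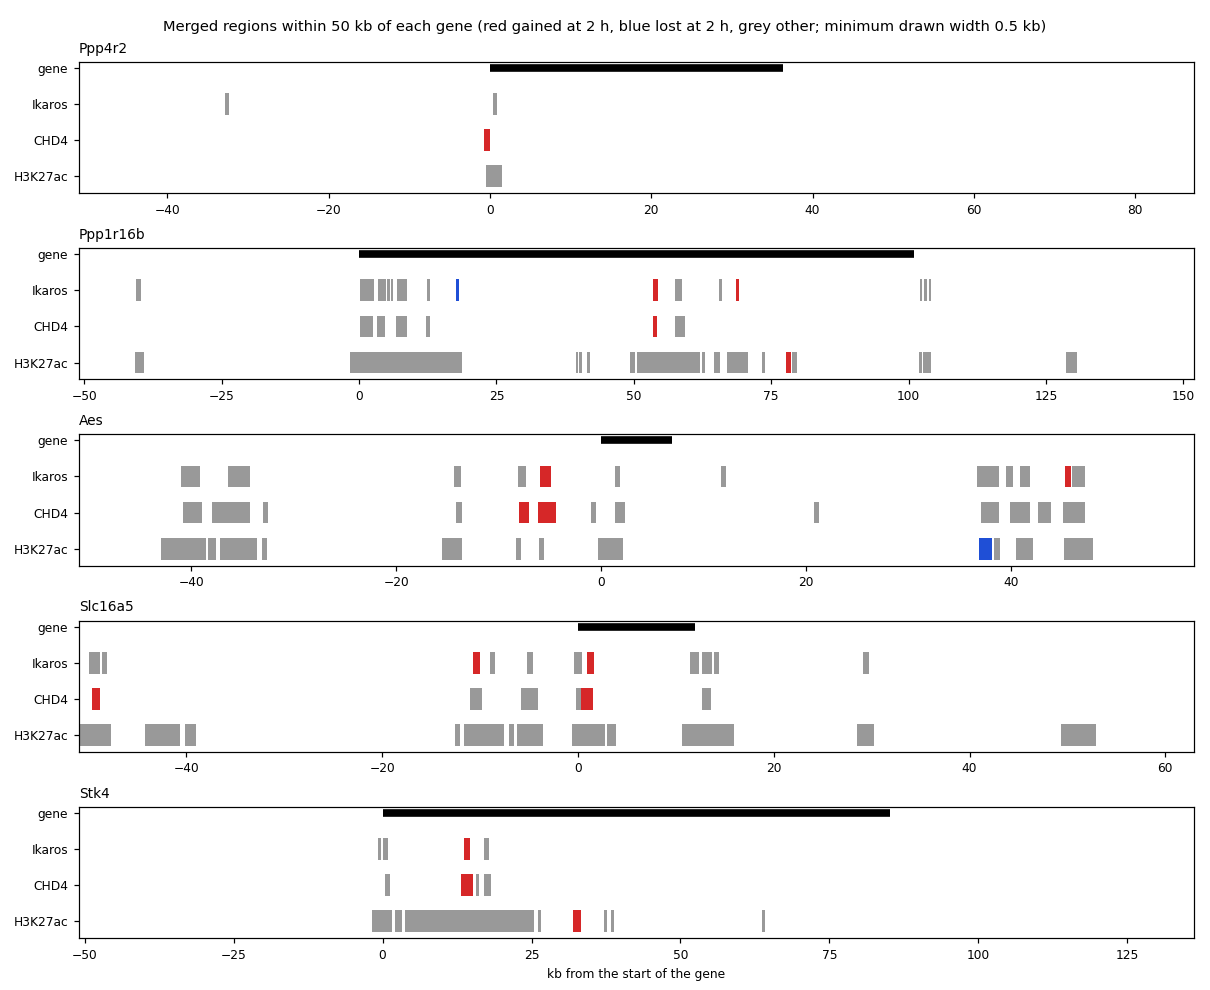
Merged Ikaros, CHD4 and H3K27ac regions within 50 kb of each gene, by distance in kb from the start of the gene (black bar); red regions were gained at 2 h, blue ones lost, and grey ones neither. The Ppp4r2 window holds 4 regions, that of Ppp1r16b 41, and red Ikaros and CHD4 regions coincide in 4 windows.

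The windows differed in how much they held. Ppp4r2 had 4 regions (1 CHD4, 2 Ikaros and 1 H3K27ac), Stk4 16, Slc16a5 32, Aes 37 and Ppp1r16b 41. Of the regions, 8 of 30 for CHD4, 15 of 46 for Ikaros and 18 of 54 for H3K27ac were called in 1 library only. Regions called in every library numbered 4, 7 and 23. For H3K27ac, 14715 of all 39289 regions were called in every library. Ikaros was called in at least 1 uninduced library at 18 of 46 regions, and 28 were first called after induction, 10 at 30 min, 10 at 1 h and 8 at 2 h. For CHD4, 16 of 30 were called at 0 h, and of the 14 later ones 7 were first called at 30 min, 1 at 1 h and 6 at 2 h. Longer lists hold more weak peaks, and how list length bears on these times was not tested.

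Partner genes of the members were counted within the same 50 kb. Of 35 such genes, 8 had a gained CHD4 region, where 8.31% of 21951 protein-coding genes did, and 16 had a gained Ikaros region, where 26.9% did. They were 1 and 2 of 5 protein phosphatase 4 genes, 2 and 4 of 7 protein phosphatase 1 genes, 2 and 3 of 5 Groucho genes, 2 and 2 of 9 genes of monocarboxylate transport and 1 and 5 of 9 Hippo genes, for CHD4 and Ikaros. Tle2 and Tle6 lie in the Aes window and so carry the regions that chose Aes or lie beside it, and without them the counts were 6 and 14 of 33. The genes differ in length, and longer genes have wider windows.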

How the data were processed

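Ikaros (HA), CHD4 and H3K27ac ChIP-seq peak lists of B3 cells at 0 h, 30 min, 1 h and 2 h after 4-OHT were used, with 2 replicates per time. Cells were sorted for GFP after infection and fixed with DSG and formaldehyde. The authors aligned reads with Bowtie2 2.4.2 to mm10, marked duplicates with Picard 2.23.7 and called peaks per library with MACS2 2.2.7.1 (broad peaks for CHD4), as the submitters' processing notes and the study's methods give it. Settings for the 30 min libraries and the input used for each library are not given in the sources used here. Input libraries were not analysed here.

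The deposited fold (a ratio over local background, column 7) is the value reported. The deposited −log10 p-values and −log10 q-values served for filters and for recovering fragments, and the deposited score column was not reported. Fragments at a summit were recovered from the Ikaros and H3K27ac lists, where 99.9 to 100% of values came out whole. The mean coverage was 1.98 to 3.59 fragments per base for Ikaros and 3.75 to 4.34 for H3K27ac.

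Peaks of each target that shared at least 1 bp were merged over its 8 libraries, and a region takes the fold of its highest peak in each library. Gained means called in both 2 h libraries and neither 0 h library, and lost the converse. Log2 folds of regions called in every library were quantile normalised and tested with limma 3.58.1 (R 4.3.3) with Benjamini-Hochberg adjustment over all regions and a threshold of 0.05. The fit was tested on simulated data. Named by rule were all 5 members, the CHD4 region that chose each, and every window region that was gained, lost or called by limma. Regions at gene starts and those with the highest or lowest difference were named after their values were seen. Genes are from GENCODE M21 and sequences from RefSeq. The sequence at the Ppp1r16b region is not reported here. The members, gene lists and partner genes were chosen with earlier results of these data known.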

Additional observations from a re-analysis of the deposited data

How the results depend on the processing

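Of the values fitted for named regions, 198 under an alternative kept direction and side of the threshold, 3 newly passed it and 11 changed sign. The 3 were all in Gna15 without normalisation, where chr10:81516477-81520866 had -1.63 (log2, adjusted p = 0.0314, limma) at 2 h. Without normalisation the calls over all H3K27ac regions numbered 429 at 2 h (4 higher, 425 lower, against 26 and 55 of 81) and 145 at 1 h (2 higher, 143 lower, against 1 and 10 of 11), with a median over all regions of -0.41 and -0.24. Median centring gave 33 at 1 h (6 higher, 27 lower) and 1 at 30 min, and a fold of at least 3 gave 1 at 30 min, against 0. Median centring at 2 h gave 58 (26 higher, 32 lower). Leaving out 1 library gave 0 to 25 calls at 2 h, with 0 without either 0 h library or without replicate 2 at 2 h and 2 without replicate 1 at 2 h, and 0 at 1 h for each library left out. No Ikaros call was made under any alternative.

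The replicate block gave 54 calls at 2 h, 15 at 1 h, 0 at 30 min and 0 for Ikaros, and changed no call of a named region. The labels do not say that the numbers pair libraries, and deviations of same-numbered libraries correlated by -0.0015 to 0.053 for H3K27ac and -0.0051 to 0.0395 for Ikaros.

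Signs that changed were all of values short of the threshold, and the cause was not tested. Without normalisation H3K27ac at 2 h was -0.12 at the Ppp1r16b CHD4 region and -0.39 at that of Stk4, and Ikaros at the start of Ppp1r16b was 0.053, or 0.023 with a −log10 q of at least 3. With 1 library left out, H3K27ac ran from -0.39 to 0.0496 at Ppp4r2, -0.42 to 0.32 at Slc16a5 and -0.39 to 0.47 at Stk4, and Ikaros from -0.19 to 0.14 at the start of Ppp1r16b and -0.23 to 0.065 near BC025920. Of values that kept their sign, leaving out 1 of the 2 h libraries moved H3K27ac from -0.55 to -0.10 at the start of Aes and from 0.20 to 0.44 at the Ppp1r16b CHD4 region, and Ikaros from -0.37 to -0.04 at that of Stk4.

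Counts of gained regions rest on 2 libraries per time. With 1 replicate number left out CHD4 had 11 to 13 gained regions in the windows against 7, Ikaros 15 to 18 against 7 and H3K27ac 6 to 16 against 2, and lost H3K27ac regions numbered 1 to 3 against 1. With a −log10 q of at least 3 CHD4 had 3. With lists of equal size Ikaros had 4. Merging only peaks that share at least 50% of the shorter left 1 gained H3K27ac region. Lost H3K27ac regions numbered 0 within 20 kb and 2 with a fold of at least 3, with a −log10 q of at least 3 and with lists of equal size. Over all such settings, 18 counts stayed within 1.5 times and 14 did not. The depth of the CHD4 lists is unknown.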
